A study of Mus musculus with 4 samples.

Results

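The genes examined here are imprinted genes of the mouse, which are expressed mainly from the maternal or the paternal allele. They were taken from a list of 44 symbols that covers the well-known imprinted clusters and located with GENCODE vM21 on GRCm38. The older symbol Zac1 and Plagl1 are the same gene, so that 43 genes remained of 55413 annotated genes on the chromosomes used. These 43 genes lie in 18 clusters on 10 chromosomes, and 35 of them are protein-coding. Peaks of chromatin accessibility (ATACseq) and of the histone variant H2A.Z (ChIPseq) were described at these genes in the liver of a WT mouse and of a Uhrf1hepKO mouse. Both were males of the C57Bl/6 strain, 8 to 12 weeks old and on a normal diet. The control liver is labelled WT and is called Uhrf1-fl/fl in the design text, which were taken here as the same liver, and the Uhrf1hepKO liver was Uhrf1-fl/fl;Alb:Cre, in which the albumin promoter drives Cre in hepatocytes, so the other cells of the liver keep Uhrf1. By the design text the same 2 livers served both assays, which gives 4 libraries and 1 library per condition. No test between the livers was therefore possible, no p-value is given, and intervals beside shares or reads cover counting error only.

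Imprinting rests on germline differentially methylated regions (DMRs), at which DNA methylation laid down in the egg or the sperm is kept on 1 parental allele in all tissues. UHRF1 binds hemimethylated DNA after replication and brings the methyltransferase DNMT1 to it. ZFP57 binds the methylated allele of many DMRs at the letters TGCCGC and, together with TRIM28, protects its methylation. In the adult liver many imprinted growth genes, among them Igf2, H19 and Dlk1, are silenced after birth. The reads were not split by parental allele, so each peak below stands for both alleles together. In a bulk tissue, fewer cells with a signal and less signal per cell cannot be told apart.

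The 4 lists held 10758 and 10972 ATACseq peaks and 51702 and 47391 H2A.Z peaks in WT and Uhrf1hepKO. The depth of the libraries is known only through these lists. The H2A.Z folds rise in steps that correspond to a background of 3.10 (WT) and 3.30 (Uhrf1hepKO) reads per base, while the ATACseq lists do not give reads. A fold is the authors' enrichment over the local background, and the lists are not scaled to each other, so folds are set beside their percentile among all the folds of their own list. Peaks were assigned to a gene when they came within 5 kb of its transcription start site (TSS). By this rule 1 of 8 hepatocyte markers had an ATACseq peak in WT and 2 in Uhrf1hepKO, and for H2A.Z the numbers were 2 and 0. None of 5 Kupffer cell and 5 endothelial markers had a peak in any list, and of 6 stellate cell and cholangiocyte markers Sox9 was the only gene with peaks (ATACseq in WT, H2A.Z in both livers). The lists therefore check the tissue label only in small part. Uhrf1 itself had peaks of both assays at its TSS in both livers, which does not check the deletion, since the deleted exons are not given in the sources used here.

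In WT liver, 12 of 43 imprinted genes had accessible chromatin near the TSS in the window of 5 kb (27.9%, Wilson 95% interval 16.7 to 42.7), while 16.9% of all annotated genes and 30.2% of protein-coding genes had such a peak. In the Uhrf1hepKO liver 11 genes had one (25.6%, interval 14.9 to 40.2), beside 15.9% of all genes and 27.9% of protein-coding genes. H2A.Z lay at 19 imprinted genes in WT (44.2%, interval 30.4 to 58.9; 32.2% of all genes, 52.8% of protein-coding genes) and at 13 in Uhrf1hepKO (30.2%, interval 18.6 to 45.1; 30.9% and 51%). The protein-coding genes are the closer standard, since 35 of the 43 are coding. Of these 35, 16 had H2A.Z in WT (45.7%, interval 30.5 to 61.8) and 11 in Uhrf1hepKO (31.4%, interval 18.6 to 48.0). Some of these genes share peaks, and the intervals count them as separate. In at least 1 list, 22 imprinted genes had a peak near the TSS (36.7% of all and 57.7% of protein-coding genes did), and 30 had one there or in the gene body (41.8% and 66.7%).

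**Figure D1:**
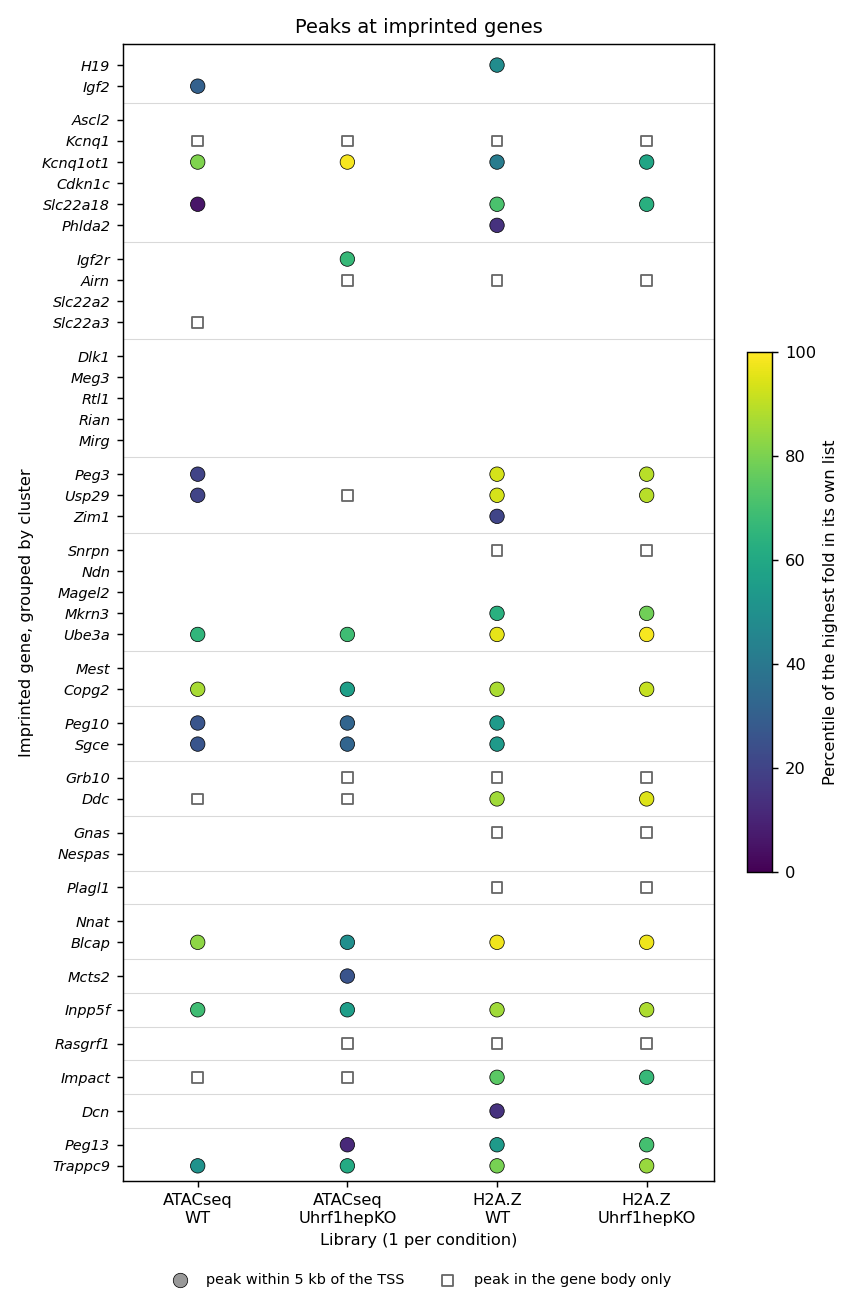
The 43 imprinted genes, grouped by cluster (rows), in the 4 libraries (columns): a filled circle is a peak within 5 kb of the TSS, coloured by the percentile of the highest fold there in its own list, and an open square is a peak in the gene body only. Circles stand at 12 and 11 genes for ATACseq and at 19 and 13 for H2A.Z, and the 5 genes of the Dlk1-Meg3 cluster have no mark in any library.

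**Figure D2:**
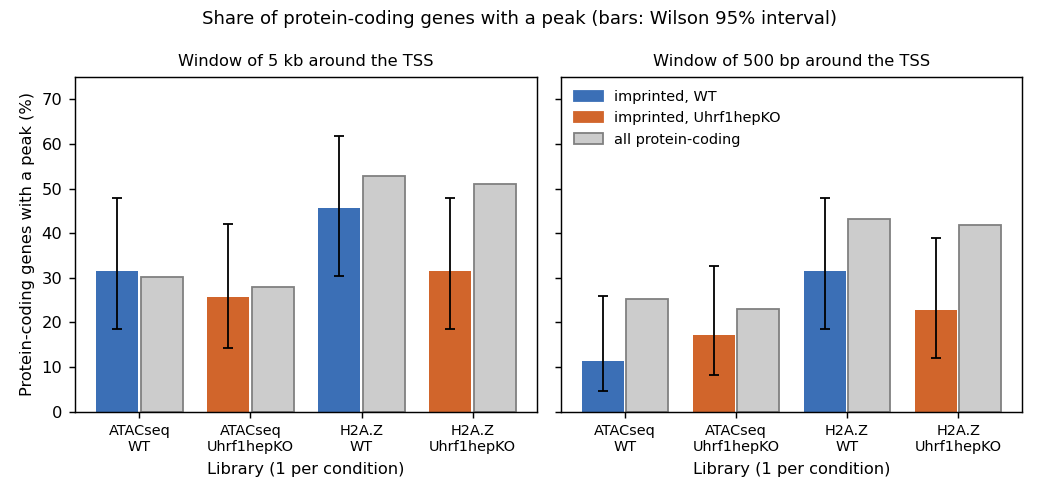
Share of protein-coding genes with a peak (vertical axis, %) in each library (1 per condition), within 5 kb of the TSS on the left and within 500 bp on the right. Coloured bars are the 35 coding imprinted genes with their Wilson 95% interval, grey bars all 21938 protein-coding genes. For H2A.Z within 5 kb, the shares are 45.7% beside 52.8% in WT and 31.4% beside 51% in Uhrf1hepKO.

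The genes with peaks were partly different in the 2 livers. For ATACseq, 8 genes had a peak in both livers (12.7% of all genes and 23% of protein-coding genes), namely Blcap, Copg2, Inpp5f, Kcnq1ot1, Peg10, Sgce, Trappc9 and Ube3a. Another 4 had it in WT only (4.29% and 7.19%): Igf2, Peg3, Slc22a18 and Usp29. The remaining 3 had it in Uhrf1hepKO only (3.21% and 4.85%): Igf2r, Mcts2 and Peg13. For H2A.Z, 13 genes had a peak in both livers (28.8% and 48.8%), and Dcn, H19, Peg10, Phlda2, Sgce and Zim1 had it in WT only (6 genes, beside 3.33% and 3.95%), while 0 genes had it in Uhrf1hepKO only (2.06% and 2.19%). A count of 0 of 43 allows a share of up to 8.20% (Wilson upper bound). Peg3 and Usp29 start beside each other in opposite directions and share their peaks, as do Peg10 and Sgce, so these pairs are not independent. A missing peak says that a signal was not detectable at this depth, not that it was absent.

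Close to the TSS the picture was narrower. Within 500 bp, 5 genes had an ATACseq peak in WT (11.6%, beside 12% of all genes and 25.3% of protein-coding genes) and 8 in Uhrf1hepKO (18.6%, beside 10.9% and 22.9%). The 5 genes Copg2, Inpp5f, Kcnq1ot1, Trappc9 and Ube3a had it in both livers (9.09% and 19.3%), 0 in WT only (2.88% and 5.95%), and Igf2r, Mcts2 and Peg13 in Uhrf1hepKO only (1.85% and 3.61%). All 4 genes with accessible sites in WT only thus had them farther than 500 bp from the TSS, and all 3 genes with accessible sites in Uhrf1hepKO only had them within 500 bp of it. For H2A.Z, 13 genes had a peak within 500 bp in WT (30.2%, beside 21.1% of all genes and 43.2% of protein-coding genes) and 10 in Uhrf1hepKO (23.3%, beside 20.4% and 41.9%), with Dcn, Peg3 and Zim1 in WT only (1.93% and 3.26%). Among the 35 coding imprinted genes, 11 and 8 had it (31.4% and 22.9%).

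**Figure D3:**
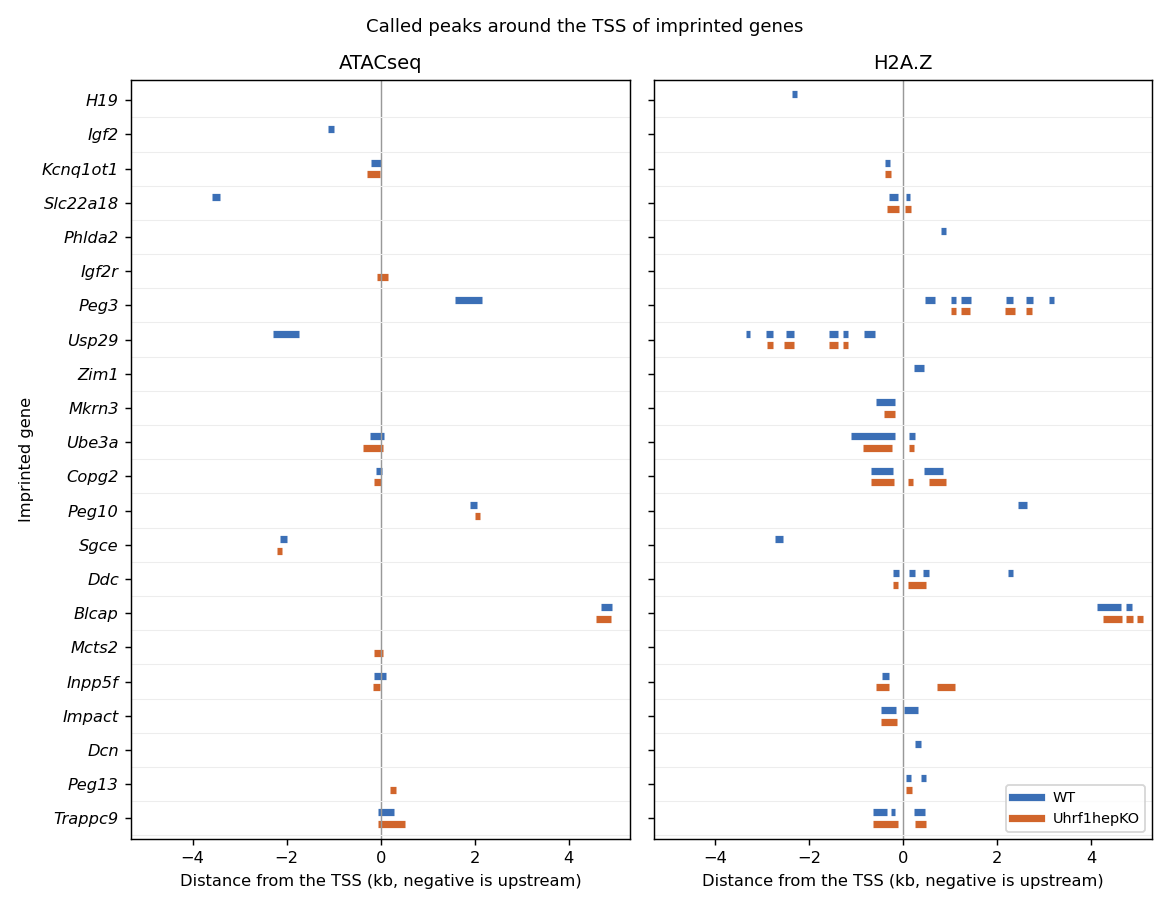
Called peaks within 5 kb of the TSS of the 22 imprinted genes that have any, by distance from the TSS (kb, horizontal axis, transcription to the right), for ATACseq on the left and H2A.Z on the right; each bar is 1 peak to scale, blue in WT and orange in Uhrf1hepKO. The orange ATACseq bars of Igf2r, Mcts2 and Peg13 lie at or close to the TSS with no blue bar, and 6 genes have blue H2A.Z bars only.

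In the Igf2r-Airn cluster the paternally expressed antisense RNA Airn starts inside Igf2r and silences it in cis, and Igf2r, the receptor that clears IGF2 for degradation, is expressed from the maternal allele. The Igf2r promoter was accessible in the Uhrf1hepKO list only. Its peak of 227 bp, centred 40 bp inside the gene on its first exon, had a fold of 4.53 (percentile 66.9 of its list), and the nearest WT ATACseq peak was 146308 bp away. It was the ATACseq peak with the densest CpGs at these genes, 27 in all with 72.2% GC, and the Igf2r promoter is known to be methylated on the paternal allele. It also falls within the Airn transcript, from which it cannot be told apart. Airn itself had no peak within 5 kb of its TSS, but an H2A.Z peak in an intron was among the strongest of each list, with a fold of 11.5 (percentile 98.5; 46 reads at the summit, Poisson 95% interval 33.7 to 61.4) in WT and 9.53 (percentile 93.2; 40 reads, interval 28.6 to 54.5) in Uhrf1hepKO. The nearest annotated Airn transcript starts about 5 kb downstream of it (centre at -5542 bp in WT). Of the organic cation transporters, Slc22a3 had 1 intronic ATACseq peak in WT (fold 3.68, percentile 17.7), and Slc22a2 had no peak.

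Igf2r is shown as the CpG-rich promoter that was in the Uhrf1hepKO list only, at chr17:12769511-12769737 (plus strand, GRCm38, RefSeq FASTA); it holds no TGCCGC on either strand, so no letter is in capitals.
Igf2r: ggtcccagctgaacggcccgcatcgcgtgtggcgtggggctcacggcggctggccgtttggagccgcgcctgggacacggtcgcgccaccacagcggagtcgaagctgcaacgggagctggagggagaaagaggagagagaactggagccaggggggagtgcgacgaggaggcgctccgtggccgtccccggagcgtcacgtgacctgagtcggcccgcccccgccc

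Mcts2 is a paternally expressed retrogene that lies in an intron of H13, and its promoter is a DMR methylated on the maternal allele. The 4 lists together held 1 peak for it, an ATACseq peak of 210 bp in Uhrf1hepKO centred at -49 bp from its TSS (negative is upstream here and below). The fold was 3.59 (percentile 26), and the nearest WT ATACseq peak lay 17390 bp away. No H2A.Z peak was called there in either liver. Peg13 is a paternally expressed noncoding RNA that starts in an intron of Trappc9, again at a maternally methylated DMR. Its ATACseq peak of 119 bp, centred 262 bp into the RNA, was in Uhrf1hepKO only and had a low fold of 3.38 (percentile 11.7). H2A.Z flanked this position on both sides in WT. There, H2A.Z peaks were centred at 112 bp (fold 5.36, 21 reads, interval 13 to 32.1) and 437 bp (fold 4.63, 18 reads, interval 10.7 to 28.4), while in Uhrf1hepKO 1 peak was called at 123 bp (fold 6.51, 27 reads, interval 17.8 to 39.3). With peaks kept only at a q-value of at most 0.01, only Igf2r of the 3 genes keeps its ATACseq peak.

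Both sequences are dense in CpGs, 20 in 210 bp at Mcts2 and 11 in 119 bp at Peg13, and each holds TGCCGC 2 times, counted on both strands and set in capitals (GCGGCA on the plus strand is the same motif). They are shown as maternally methylated DMRs with accessible chromatin in the Uhrf1hepKO list only, at chr2:152686882-152687091 and chr15:72810003-72810121 (plus strand, GRCm38, RefSeq FASTA).
Mcts2: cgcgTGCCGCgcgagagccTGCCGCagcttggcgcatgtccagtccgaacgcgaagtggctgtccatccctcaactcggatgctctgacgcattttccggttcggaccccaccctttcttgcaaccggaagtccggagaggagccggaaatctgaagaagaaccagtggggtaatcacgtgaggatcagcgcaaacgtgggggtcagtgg
Peg13: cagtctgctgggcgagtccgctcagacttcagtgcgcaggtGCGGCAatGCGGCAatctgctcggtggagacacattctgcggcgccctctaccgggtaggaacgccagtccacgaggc

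The motif was searched on both strands in windows of 300 bp at the centre of every peak. It was found in 26.3% of the 19 ATACseq peaks of imprinted genes in Uhrf1hepKO and 16.7% of the 18 in WT, beside 13.9% and 15.2% of all peaks of these lists. In RefSeq promoters, short windows at each gene's start (GRCm38), 32 of the 43 genes were matched by symbol, and 11 of them held TGCCGC (34.4%), beside 13.1% of 27025 genes. Of the 9 matched genes with a maternally methylated germline DMR at 1 of their starts, 5 held it (55.6%), and of the 23 others 6 (26.1%). The motif contains a CpG, and among the genes with a promoter of at least 11 CpGs, the median of the promoters of those 9 genes, 24.6% held it. Promoters of the 9 genes below this median may lie outside that class. A gene counted when any of its promoters held the motif, and some have several. By promoter, 6 of 14 of the DMR genes held it (42.9%) and 6 of 32 of the others (18.8%). The share was 11.6% of all 32851 promoters and 23.1% of those with at least 11 CpGs. Mest, Snrpn, Plagl1, Nnat and Mcts2 are the 5 DMR genes with the motif. A match describes the letters and is not evidence of binding.

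In the Kcnq1-Cdkn1c cluster the paternally expressed RNA Kcnq1ot1 runs antisense to the potassium channel gene Kcnq1 from a DMR in an intron of that gene, and it silences the neighbouring genes in cis. Peaks at its start also lie within Kcnq1 and cannot be assigned to 1 of the genes. The start of Kcnq1ot1 carried the highest ATACseq fold of the imprinted genes in Uhrf1hepKO. Its fold was 5.45 in WT (percentile 80.7) and 8.73 in Uhrf1hepKO (percentile 98.7), at -107 and -155 bp from the TSS. H2A.Z lay just upstream in both livers, centred at -334 bp with 19 reads in WT (interval 11.4 to 29.7) and at -332 bp with 24 reads in Uhrf1hepKO (interval 15.4 to 35.7). The intervals of the reads overlap, and for ATACseq no counting error can be given. The accessible sequence had few CpGs (5 in 221 bp in WT) and no TGCCGC, and is shown for its rank.
Kcnq1ot1 (chr7:143296546-143296766, plus strand, GRCm38, RefSeq FASTA): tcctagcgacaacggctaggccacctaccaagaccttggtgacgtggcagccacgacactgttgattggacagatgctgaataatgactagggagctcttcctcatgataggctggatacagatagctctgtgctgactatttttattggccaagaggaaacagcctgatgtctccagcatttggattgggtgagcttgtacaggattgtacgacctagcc

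Along Kcnq1, 2 other intronic ATACseq sites were called in both livers, with folds of 4.85 and 5.60 in WT and 4.83 and 6.01 in Uhrf1hepKO, and another was called in WT only (fold 3.90, percentile 30.2) over an H2A.Z peak present in both livers. An H2A.Z peak inside both Kcnq1 and Kcnq1ot1 was in Uhrf1hepKO only (fold 6.51, percentile 70.1; 27 reads, interval 17.8 to 39.3). A weak one in Kcnq1 was in WT only (fold 3.20, percentile 2.81). The organic cation transporter gene Slc22a18 had H2A.Z on both sides of its TSS in both livers. The upstream peak had 25 reads at its summit in each liver (interval 16.2 to 36.9), and the downstream peak had 14 reads in WT (interval 7.65 to 23.5) and 21 in Uhrf1hepKO (interval 13 to 32.1). Its ATACseq peak in WT, at -3503 bp, was among the weakest of its list (fold 3.50, percentile 5.48). Phlda2, which restrains placental growth, had a weak H2A.Z peak in WT only (fold 3.90, percentile 14.1). The cell cycle inhibitor Cdkn1c and the trophoblast factor Ascl2 had no peak in any list, although 106 and 55 CpGs lie within 500 bp of their starts.

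Igf2, the paternally expressed fetal growth factor, and H19, a maternally expressed noncoding RNA, share enhancers and a control region upstream of H19 that is methylated on the paternal allele and bound by CTCF on the maternal allele. Both peaks assigned to these genes were in WT only. The span of 91.3 kb over the 2 genes held 1 further ATACseq peak in WT, assigned to neither gene, and 0 in Uhrf1hepKO. Igf2 had an ATACseq peak of 127 bp at -1063 bp (fold 3.91, percentile 30.7). H19 had an H2A.Z peak of 104 bp at -2318 bp, with a fold of 5.12 (percentile 48.1) and 20 reads at its summit (interval 12.2 to 30.9), and the nearest H2A.Z peak in Uhrf1hepKO was 46964 bp away. A fixed string for the core of the CTCF motif was searched on both strands. It was matched 4 times in the 5 kb upstream of H19, at -2172, -2627, -3653 and -3897 bp. Of 21938 protein-coding genes, 53 had any match in the 5 kb upstream (0.242%), and 0 of them had as many as 4. The string was also rare in the central 300 bp of WT H2A.Z peaks (16 of 51450, 0.0311%). These counts describe this string only and not CTCF sites in general. How the string was first derived was not examined, so its rarity elsewhere is not evidence about H19. The match closest to H19 and the H2A.Z peak are both contained in the window chr7:142580306-142580605 (plus strand, GRCm38, RefSeq FASTA), shown with the match in capitals.
H19: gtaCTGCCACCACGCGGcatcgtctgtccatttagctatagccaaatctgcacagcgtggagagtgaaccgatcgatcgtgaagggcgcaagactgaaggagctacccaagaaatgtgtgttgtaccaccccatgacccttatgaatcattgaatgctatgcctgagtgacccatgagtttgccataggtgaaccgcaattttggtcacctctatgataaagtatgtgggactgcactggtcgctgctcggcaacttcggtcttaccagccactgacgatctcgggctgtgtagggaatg

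Peg3, a paternally expressed zinc finger gene, and Usp29, a ubiquitin peptidase gene, start back to back at a maternally methylated DMR that extends into the first intron of Peg3. This intron held more H2A.Z peaks than the 5-kb window of any other imprinted gene start except that of Usp29, which shares them, 6 in WT and 4 in Uhrf1hepKO. The 4 peaks at 1073, 1331, 2263 and 2690 bp in WT overlapped peaks in Uhrf1hepKO. Their folds were 4.87, 6.58, 7.31 and 9.26 in WT and 6.04, 5.81, 8.60 and 8.09 in Uhrf1hepKO in the same order. The outermost peaks, at 571 bp (24 reads, interval 15.4 to 35.7) and at 3151 bp (16 reads, interval 9.15 to 26), were in WT only. So was an ATACseq peak of 560 bp at 1862 bp, which lay between the H2A.Z peaks at 1331 and 2263 bp and had a low fold of 3.72 (percentile 20). The nearest ATACseq peak in Uhrf1hepKO was 97183 bp away, in an intron of Usp29. The central 300 bp of the accessible block are shown with their TGCCGC in capitals (chr7:6728420-6728719, plus strand, GRCm38, RefSeq FASTA).
Peg3: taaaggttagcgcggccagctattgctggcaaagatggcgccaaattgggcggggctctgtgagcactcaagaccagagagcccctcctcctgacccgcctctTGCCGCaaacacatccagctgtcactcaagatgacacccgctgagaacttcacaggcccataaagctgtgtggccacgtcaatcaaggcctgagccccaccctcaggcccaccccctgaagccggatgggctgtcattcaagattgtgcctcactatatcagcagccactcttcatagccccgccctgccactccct

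Farther along Usp29, 6 H2A.Z peaks in WT and 7 in Uhrf1hepKO lay in introns, and the highest had 33 reads in WT (interval 22.7 to 46.3) and 30 in Uhrf1hepKO (interval 20.2 to 42.8). Zim1, a maternally expressed zinc finger gene of the same cluster, had a weak H2A.Z peak at 344 bp in WT only (fold 4.14, percentile 20.3). Peg10, a gene of retrotransposon origin, and the sarcoglycan gene Sgce also start back to back at a maternally methylated DMR. A weak ATACseq site in the first part of Peg10 was in both livers (folds 3.83 and 3.69, percentiles 26.3 and 32.1), and a nearby H2A.Z peak was in WT only (fold 5.36, 21 reads, interval 13 to 32.1). The nearest H2A.Z peak in Uhrf1hepKO was 47168 bp away.

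**Figure D4:**
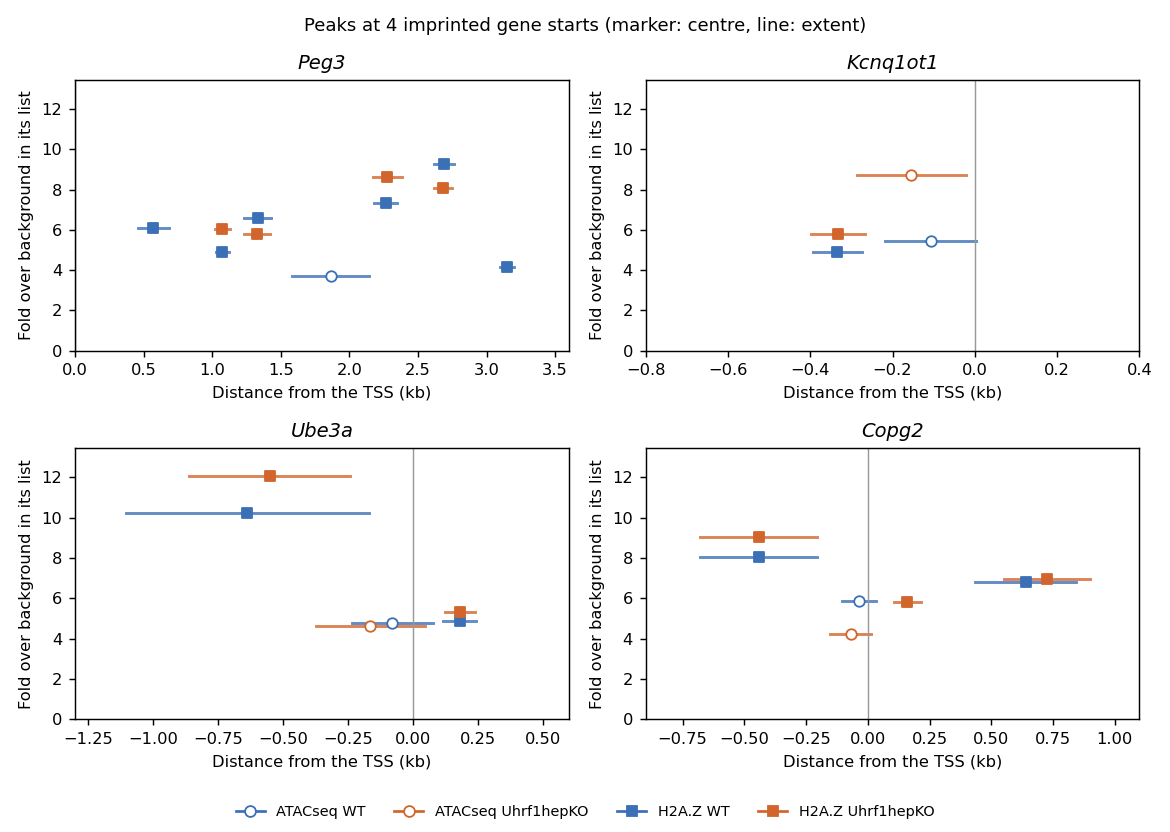
Peaks at the starts of Peg3, Kcnq1ot1, Ube3a and Copg2 by distance from the TSS (kb, horizontal axis) and fold over background in the peak's own list (vertical axis). Markers are peak centres and lines the extent of each peak, with open circles for ATACseq, filled squares for H2A.Z, blue for WT and orange for Uhrf1hepKO (1 library each); ATACseq folds and H2A.Z folds are not on a common scale. At Ube3a and Copg2 the ATACseq peak sits between H2A.Z peaks in both livers, and at Peg3 it is in WT only.

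Besides Kcnq1ot1, the genes Ube3a, Copg2, Trappc9, Inpp5f and Blcap had peaks of both assays within 5 kb of the TSS in both livers, and imprinting of several of these is known to be limited to some tissues. Ube3a, a ubiquitin ligase gene imprinted in neurons, had an ATACseq peak over its TSS in both livers (folds 4.78 and 4.61, percentiles 65.5 and 68.9). Upstream of it, a broad H2A.Z peak of 938 bp had a fold of 10.2 in WT (percentile 96.3; 41 reads, interval 29.4 to 55.6), and a peak of 616 bp had 12.1 in Uhrf1hepKO (percentile 98.6; 51 reads, interval 38 to 67.1). Copg2, a coatomer subunit gene that overlaps the end of Mest, had ATACseq peaks at -35 and -70 bp (folds 5.86 and 4.21) between H2A.Z peaks upstream (folds 8.04 and 9.06) and downstream (6.82 and 6.97). A further, inner H2A.Z peak was called in Uhrf1hepKO only (fold 5.81, 24 reads, interval 15.4 to 35.7). Trappc9, a vesicle trafficking gene, had ATACseq folds of 4.32 and 4.33 at the TSS and H2A.Z upstream in both livers. Its downstream H2A.Z peak overlapped the ATACseq peak in WT and lay within it in Uhrf1hepKO. Inpp5f, a phosphoinositide phosphatase gene, had ATACseq folds of 4.89 and 4.19 and upstream H2A.Z folds of 7.80 and 8.37. A downstream H2A.Z peak of Inpp5f was in Uhrf1hepKO only (fold 4.42, 18 reads, interval 10.7 to 28.4). Blcap had no peak at its annotated gene start, but within 5 kb, at the start of a shorter transcript, all 4 lists held a peak. Its ATACseq folds there were 5.59 and 4.04 and its highest H2A.Z folds 11.0 and 11.2 (percentiles 97.8 and 97.4). Nnat, which lies inside Blcap and is paternally expressed from a maternally methylated DMR, had no peak within its window, and the nearest peak of any list was 6102 bp from its start.

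Of the neuronal genes of the Snrpn-Ube3a cluster, Mkrn3 had H2A.Z upstream of its TSS in both livers (fold 5.85 with 23 reads in WT, interval 14.6 to 34.5, and 7.20 with 30 reads in Uhrf1hepKO, interval 20.2 to 42.8). Ndn and Magel2, which encode proteins of the MAGE family, had none. Snrpn, which encodes a splicing protein, had no peak at its annotated 5′ end, but 2 H2A.Z peaks in each liver lay on both sides of the start of its shorter transcript. In WT they had 17 and 26 reads (intervals 9.90 to 27.2 and 17.0 to 38.1), and in Uhrf1hepKO 17 and 20 reads (intervals 9.90 to 27.2 and 12.2 to 30.9). Mest, a paternally expressed gene that starts at a maternally methylated DMR, had no peak. In the Dlk1-Meg3 cluster, which includes Dlk1, a regulator of growth and fat cell formation, and the maternally expressed RNAs Meg3, Rian and Mirg, none of the 5 genes had a peak. The span of 297 kb held 0 ATACseq peaks and 1 H2A.Z peak in each liver, at different places, 677 bp beyond Rian in WT (fold 4.14) and 9277 bp before Meg3 in Uhrf1hepKO (fold 5.11).

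Other genes had peaks mainly inside the gene. In the gene body, 12 imprinted genes had an ATACseq peak in WT (14.6% of all genes and 30% of protein-coding genes) and 15 in Uhrf1hepKO (13.7% and 28.4%), and 22 had H2A.Z in WT (24.3% and 46.2%) and 19 in Uhrf1hepKO (22.9% and 43.4%). For 8 genes, Kcnq1, Airn, Slc22a3, Snrpn, Grb10, Gnas, Plagl1 and Rasgrf1, the peaks were in the body only. Grb10, an adaptor that restrains insulin signalling, held 9 H2A.Z peaks in WT and 6 in Uhrf1hepKO, and all 6 overlapped WT peaks. The highest had 40 reads in WT (interval 28.6 to 54.5) and 46 in Uhrf1hepKO (interval 33.7 to 61.4). Its neighbour Ddc, dopa decarboxylase, had 4 H2A.Z peaks near its TSS in WT and 2 in Uhrf1hepKO. There, a single peak of 384 bp (42 reads, interval 30.3 to 56.8) covered the WT peak of 31 reads and part of that of 15 reads. An intronic ATACseq peak of Ddc was in both livers, with folds of 6.12 in WT (percentile 90.0) and 4.48 in Uhrf1hepKO (percentile 65.3). Weaker intronic ATACseq peaks of Ddc and Grb10 were in Uhrf1hepKO only (folds 3.61 and 3.67, percentiles 27.2 and 31.3). Rasgrf1, a Ras exchange factor gene, had an ATACseq peak in an intron in Uhrf1hepKO only, with a high fold of 5.91 (percentile 90.5), over an H2A.Z peak present in both livers (folds 7.07 and 5.35). Gnas, which encodes the stimulatory G protein subunit, and the zinc finger gene Plagl1 shared 1 intronic H2A.Z peak each between the livers, and the antisense RNA Nespas had none. Gnas and Plagl1 each had another H2A.Z peak in Uhrf1hepKO only (18 reads, interval 10.7 to 28.4, and 17 reads, interval 9.90 to 27.2). Gnas also had a further one in WT only (13 reads, interval 6.92 to 22.2). Dcn, the extracellular matrix protein decorin, had a weak H2A.Z peak in WT only (fold 3.90, percentile 14.1).

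Impact, a paternally expressed regulator of translation, contained the widest accessible block of all the imprinted genes. It lay in the gene over the start of a shorter transcript, with most of its length upstream of that start. The block had 1132 bp in WT (fold 3.73, percentile 20.7) and 1327 bp in Uhrf1hepKO (fold 4.17, percentile 55.1). The block was rich in CpGs, 95 in WT and 106 in Uhrf1hepKO, and held TGCCGC 3 and 4 times. An H2A.Z peak within this block was in the Uhrf1hepKO list only (fold 5.11, 21 reads, interval 13 to 32.1). At the annotated start of Impact, H2A.Z upstream of the TSS was called in both livers with 26 reads (interval 17.0 to 38.1) in each.

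Over all the imprinted genes, 42 of 65 distinct H2A.Z peaks in WT overlapped a peak in Uhrf1hepKO (64.6%, interval 52.5 to 75.1), beside 70.0% of all WT H2A.Z peaks. For ATACseq, 12 of 18 did (66.7%, interval 43.7 to 83.7), beside 61.3% of all. In the other direction, 40 of 54 Uhrf1hepKO H2A.Z peaks overlapped a WT peak (74.1%, interval 61.1 to 83.9), beside 75.6% of all. Of the Uhrf1hepKO ATACseq peaks 12 of 19 did (63.2%, interval 41.0 to 80.9), beside 60.3% of all. Peaks without an overlap had lower folds, as they did over all peaks. At imprinted genes their median percentile was 20.3 in WT H2A.Z (72.8 with an overlap), beside 27.3 and 63.6 over all peaks, and 30.4 in Uhrf1hepKO H2A.Z (65.0), beside 24.1 and 59.0. For ATACseq it was 19.6 in WT (68.2), beside 29.8 and 64.3, and 31.3 in Uhrf1hepKO (58.4), beside 30.6 and 63.7. Single peaks without an overlap ranked higher, among them the Uhrf1hepKO ATACseq peaks of Rasgrf1 (percentile 90.5) and Igf2r (66.9) and a WT H2A.Z peak at 170 bp in Impact (74.3). Of the 42 overlapping H2A.Z pairs, 41 gave reads at the summit in both livers, between 14 and 51 reads. In 40 of these the counting intervals of the livers overlapped. The exception was the Ddc peak of 15 reads in WT, which the wide Uhrf1hepKO peak of 42 reads overlapped only in part. The summits of this pair lay at different sites, 509 bp from the TSS in WT and 196 bp in Uhrf1hepKO. The summit of the neighbouring WT peak of 31 reads was at 187 bp. The percentile was higher in Uhrf1hepKO in 23 pairs and in WT in 19, with a median difference (Uhrf1hepKO minus WT) of 1.95 points, beside -0.32 over all 35999 pairs. Each WT peak was paired with the overlapping Uhrf1hepKO peak of highest fold, so the pairs are not all independent. The Uhrf1hepKO peaks of Ddc (42 reads) and Trappc9 (33 reads) were each used again for a neighbouring WT peak, always with the higher percentile in Uhrf1hepKO.

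**Figure D5:**
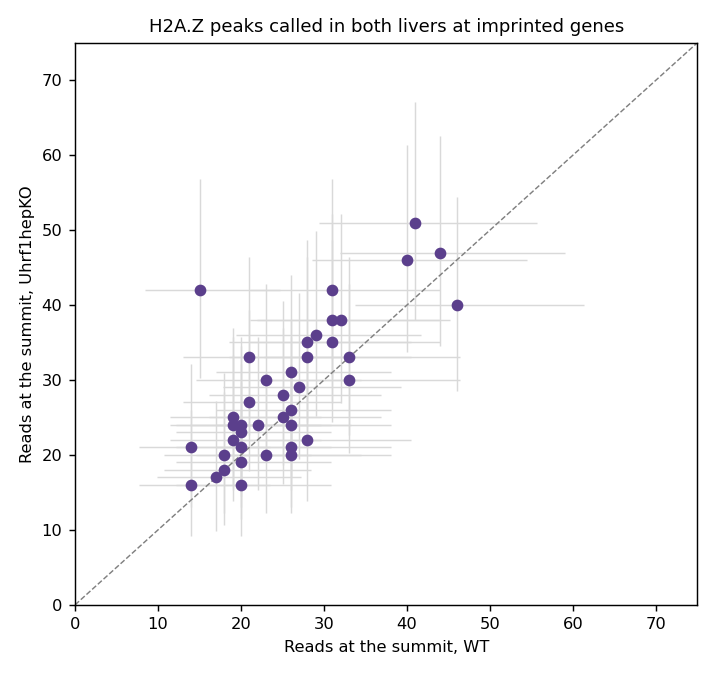
Reads at the summit of the 41 H2A.Z peaks at imprinted genes that overlap between the livers, WT on the horizontal and Uhrf1hepKO on the vertical axis, with Poisson 95% counting intervals (grey) and the line of equality (dashed). The points follow the line between 14 and 51 reads, and the point at 15 and 42 reads is the WT peak of Ddc that a wider Uhrf1hepKO peak partly overlaps.

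The imprinted genes were also divided by the CpGs in the window of 500 bp at their starts. The median number was 42, near the 41 of protein-coding genes, and it ranged from 4 to 107. Of the 22 imprinted genes with at least 41 CpGs, 11 had H2A.Z in WT (50%) and 8 in Uhrf1hepKO (36.4%), beside 76.1% and 74.0% of protein-coding genes with as many CpGs. The ATACseq shares were 36.4% and 40.9%, beside 48.6% and 44.3%. Of the 21 with fewer CpGs, 8 and 5 had H2A.Z (38.1% and 23.8%), beside 29.1% and 27.8% of protein-coding genes and 18.7% and 17.7% of all genes, and 4 and 2 had ATACseq peaks (19% and 9.52%), beside 11.6% and 11.2% of protein-coding genes. No test was made of these differences. A maternally methylated germline DMR is known at 1 of the starts of 14 genes. The gene start used here need not be that one, since only 5 CpGs at Snrpn and 10 at Mest lay within 500 bp of it, and the CpG-rich block of Impact lay outside its 5-kb window. Of these 14 genes, 5 had ATACseq peaks in the 5-kb window in each liver, beside 7 of the 29 others in WT and 6 in Uhrf1hepKO (30.2% and 27.9% of protein-coding genes). H2A.Z lay at 7 of the 14 in WT and 5 in Uhrf1hepKO, beside 12 and 8 of the 29 others (52.8% and 51% of protein-coding genes).

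Of 16 genes that keep or remove imprints, 3 had ATACseq peaks in the 5-kb window in WT (18.8%, beside 30.2% of protein-coding genes) and 5 in Uhrf1hepKO (31.2%, beside 27.9%), where Dppa3, which protects maternal methylation in the zygote, and Smchd1 were added. H2A.Z lay at 11 in WT (68.8%, beside 52.8%) and 8 in Uhrf1hepKO (50%, beside 51%). The 3 genes with it in WT only were Arid4a, Ctcf and Dnmt3l. Zfp57 and Zfp445, the zinc finger proteins that recognise imprinted DMRs, had H2A.Z in both livers. Dnmt1 and Trim28 had no peak of any list within 5 kb of the gene's 5′ end. Peaks farther inside these 16 genes, where other transcripts may start, were not counted. At Zfp57 the peaks were at different sites, at -3851 bp in WT (fold 6.58, percentile 74.3) and at -939 bp in Uhrf1hepKO. The latter was among the weakest of its list (fold 3.49, percentile 4.71).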

How the data were processed

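ATACseq and ChIPseq for H2A.Z were each done on 1 liver per genotype. BWA-MEM (GRCm38.p4) was used by the authors for alignment and PICARD for cleaning (for ChIPseq also removal of duplicates), and the authors called peaks library by library with MACS2, using its broad mode for ATACseq. The methods state a p-value of 0.05 for the calls, while the deposited lists end at q-values of 0.0997 and 0.0993 for ATACseq and just below 0.05 for H2A.Z. The submitters' notes list FastQC 0.11.5. The MACS2 version, control and placement of multi-mapping reads are not given in the sources used here. The deposited lists hold a fold enrichment (ratio over local background), −log10 p-values, −log10 q-values and a display score, and for H2A.Z another value, the distance of the summit from the peak's start. Of these, the score was not used.

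Only the autosomes, X and Y were used, with genes from GENCODE vM21. The TSS was the gene's 5′ end, a peak counted there if any of its bases fell within 5 kb on either side, and overlaps needed 1 bp. Reads at H2A.Z summits were recovered from the folds, since MACS2 adds 1 to pileup and background, and kept only where the whole number also gave the deposited p-value. Wilson and Poisson 95% intervals cover counting error only. All 43 genes are named, but only selected peaks of each are described. The DMR genes, motifs, markers and other lists come from textbook knowledge. The genes, lists and alternatives were chosen with earlier results of these data known, and the Igf2r, Peg3 and H19 sequences, the pairs of H2A.Z reads, the promoters matched for CpGs and the CTCF matches were chosen after the peaks were seen. The assignment of peaks to a TSS and the overlap of intervals were tested on simulated data, and the other steps were not. The analysis used pandas 2.3.3 and numpy 2.4.6 under Python 3.11.15, with scipy 1.17.1 for intervals, pysam 0.24.0 for sequence and matplotlib 3.10.9 for plots.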

Additional observations from a re-analysis of the deposited data

How the results depend on the processing

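Windows of 500 bp, 2 kb and 10 kb, starts of any transcript, peaks at or above the median fold, a q-value of at most 0.01, lists of equal size and other overlap rules were tried, and 62 of 78 alternative values stayed within 1.5 times the reported count. For ATACseq at the TSS, the 12 genes in WT became 5 within 500 bp and 6 above the median fold, and the 11 in Uhrf1hepKO became 6 above the median fold and 7 at the stricter q-value. The 3 genes with ATACseq in Uhrf1hepKO only became 1 under each of these last 2 rules, and the 4 in WT only became 0 within 500 bp, 1 above the median fold and 2 at the stricter q-value. The 6 genes with H2A.Z in WT only became 3 within 500 bp, within 2 kb and above the median fold, and the 0 in Uhrf1hepKO only became 1 within 10 kb, with any transcript start and above the median fold. The 15 genes with ATACseq in the body in Uhrf1hepKO became 9 above the median fold. The cause of these shifts was not tested beyond the smaller windows and fewer peaks that the rules leave. No paired analysis was possible because each condition has 1 library and no test was made. Counts of members in 1 liver only rest on few peaks, and the spread between mice is unknown.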

Other observations

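A further 31 imprinted genes that are not among the 43 were listed, of which 30 were found in the annotation. Within 5 kb of the TSS, 6 had an ATACseq peak in WT (20%, beside 16.9% of all and 30.2% of protein-coding genes) and 8 in Uhrf1hepKO (26.7%, beside 15.9% and 27.9%), and Chrac1, H13, Kcnk9, Nap1l4 and Tssc4 had it in both livers. Casd1 had it in WT only, and Cd81, Gab1 and Osbpl5 in Uhrf1hepKO only. H2A.Z lay at 18 of the 30 in each liver (60%, beside 32.2% of all and 52.8% of protein-coding genes in WT and 30.9% and 51% in Uhrf1hepKO), a higher share than at the 43 genes (44.2% in WT and 30.2% in Uhrf1hepKO), and these were the same 18 genes, among them the transporter gene Atp10a, the adaptor gene Gab1 and the polycomb-like gene Sfmbt2. The insulin gene Ins2, the amino acid transporter gene Slc38a4 and Dio3, which inactivates thyroid hormone, had no peak of either assay in their windows in either liver. Peaks in the bodies of these genes were not counted. Ins2 is annotated as a long gene (chr7:142678656-142743381), so its window lies far from its other end. The Uhrf1hepKO ATACseq peak nearest to the Igf2 TSS, 11940 bp away, falls inside the annotated Ins2 gene.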
